A study of Mus musculus with 12 samples.

Results

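Interferon-stimulated genes are the genes that cells switch on when type I or type II interferon reaches them, and 40 of them were followed here by the gene symbols of a listed set. All 40 were found once in the deposited gene table of each time point, among 26240 genes at 4 h and 27020 at 24 h. Fibroblasts, which lay down collagen and other matrix in the heart, had been taken from C57BL/6 hearts as primary cells and kept in medium with serum. Ethanol alone, the vehicle, was compared with MCB-613-10-1 at 6 µM after 4 h and after 24 h. The compound is derived from MCB-613 and is studied in the series for effects against fibrosis. RNA was sequenced in 12 libraries, 3 in each of the 4 groups, and no interferon or virus is named in the labels. Libraries held 26869195 to 31596784 counts at 4 h and 25016754 to 34877090 counts at 24 h. The labels do not say whether the 3 libraries of a group came from separate cultures or animals, so p-values measure the spread between these libraries, which may be technical.

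In the textbook pathway, type I interferon binds the receptor pair IFNAR1 and IFNAR2, the kinases JAK1 and TYK2 phosphorylate STAT proteins, and STAT2 and IRF9 become part of a complex called ISGF3. ISGF3 binds the interferon-stimulated response element (ISRE) in promoters, while interferon gamma acts through a second element (GAS). Many of the induced proteins detect or block viral nucleic acid, and fibroblasts of many tissues keep a low level of these transcripts without infection.

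Fibroblasts could be recognised by their markers. The summed level of 11 fibroblast markers, Col1a1, Vim and Pdgfra among them, was 14785 to 16623 CPM (read counts relative to library size, scaled by the TMM method of edgeR within a time) in vehicle at 4 h and 15983 to 19890 CPM in vehicle at 24 h. The 9 markers of lymphocytes and plasmacytoid dendritic cells summed to at most 1.47 CPM in any library. Macrophage and leukocyte markers were present, from 79.3 to 461.5 CPM summed over 15 genes, and are set beside the results they move with. Endothelial markers were present too, from 346.4 to 536.4 CPM summed over 10 genes. The treated 4 h libraries stood apart most from one another in the interferon-stimulated genes, with replicate 2 low and replicate 3 high. The 4 h results and the difference between times are therefore also given without these replicates.

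Promoter windows of 300 bases, 250 before and 50 after the start site, could be matched by symbol in RefSeq (GRCm38.p6) for 29 of the 40 genes. The ISRE core was searched as GAAANNGAA on both strands. It occurred in 18 of the 29 windows (62.1%), against 9.76% of the 27025 genes with a window. The core of the GAS element, TTCNNNGAA, which reads the same on both strands, was in 8 of the 29 (27.6%), against 9.55% of all genes. A match is a stretch of letters and not a measured binding site. The following windows, 5′ to 3′ along the gene, show how the cores are arranged in genes described below, with the matched letters in capitals. The windows of Isg15 and Ifit1 are given whole.
Isg15, GRCm38.p6 chr4:156200769-156201068, minus strand: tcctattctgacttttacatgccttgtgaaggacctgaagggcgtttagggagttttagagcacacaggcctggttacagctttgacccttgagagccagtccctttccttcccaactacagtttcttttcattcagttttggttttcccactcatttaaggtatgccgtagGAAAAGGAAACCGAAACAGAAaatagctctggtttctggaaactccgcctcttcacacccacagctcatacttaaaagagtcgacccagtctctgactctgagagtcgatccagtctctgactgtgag
Ifit1, GRCm38.p6 chr19:34640639-34640938, plus strand: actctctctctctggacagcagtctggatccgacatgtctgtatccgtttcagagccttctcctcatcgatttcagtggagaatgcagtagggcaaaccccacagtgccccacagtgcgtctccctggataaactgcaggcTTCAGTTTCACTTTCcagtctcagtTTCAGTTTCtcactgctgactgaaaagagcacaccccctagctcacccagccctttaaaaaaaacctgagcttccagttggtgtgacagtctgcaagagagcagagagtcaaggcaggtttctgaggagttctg
The next stretches hold the matches with 20 bases on each side. Those of Ifit3 and Ifit3b, neighbouring copies, are identical letter for letter but lie 32 bases apart in distance from the start site.
Ifit3, GRCm38.p6 chr19:34583354-34583455, plus strand: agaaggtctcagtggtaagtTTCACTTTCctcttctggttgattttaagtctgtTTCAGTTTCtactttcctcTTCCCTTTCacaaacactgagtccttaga
Ifit3b, GRCm38.p6 chr19:34607750-34607851, plus strand: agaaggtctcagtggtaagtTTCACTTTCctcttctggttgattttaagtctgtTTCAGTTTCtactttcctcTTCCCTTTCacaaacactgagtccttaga
Gbp3, GRCm38.p6 chr3:142559980-142560034, plus strand: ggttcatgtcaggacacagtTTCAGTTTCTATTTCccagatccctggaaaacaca
Irgm1, GRCm38.p6 chr11:48871416-48871470, minus strand: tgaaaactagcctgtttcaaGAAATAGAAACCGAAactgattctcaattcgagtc
Oas3, GRCm38.p6 chr5:120777700-120777754, minus strand: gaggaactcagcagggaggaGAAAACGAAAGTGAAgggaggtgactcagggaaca
Rsad2, GRCm38.p6 chr12:26456543-26456591, minus strand: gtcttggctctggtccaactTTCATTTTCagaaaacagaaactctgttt
In Isg15 the 3 matches overlap and begin 6 bases apart, at 78, 72 and 66 bases before the start site. Matches 6 bases apart were also found in Ifit1, Gbp3, Irgm1, Oas3, Oas1a, Bst2 and Eif2ak2. Of 33 matches in the 18 genes, 29 began before the start site and 25 within the last 150 bases before it. The windows of Irf7, Irf9, Ifit2 and Ifi47 held no match to the ISRE core. At 24 h the median log2 fold change was -2.20 over the 18 genes with an ISRE core and -1.74 over the 11 without. For the other elements searched the order was the opposite, -1.21 with and -2.19 without the GAS core, and -2.15 with and -2.36 without the shorter element AANNGAAA.

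**Figure D1:**
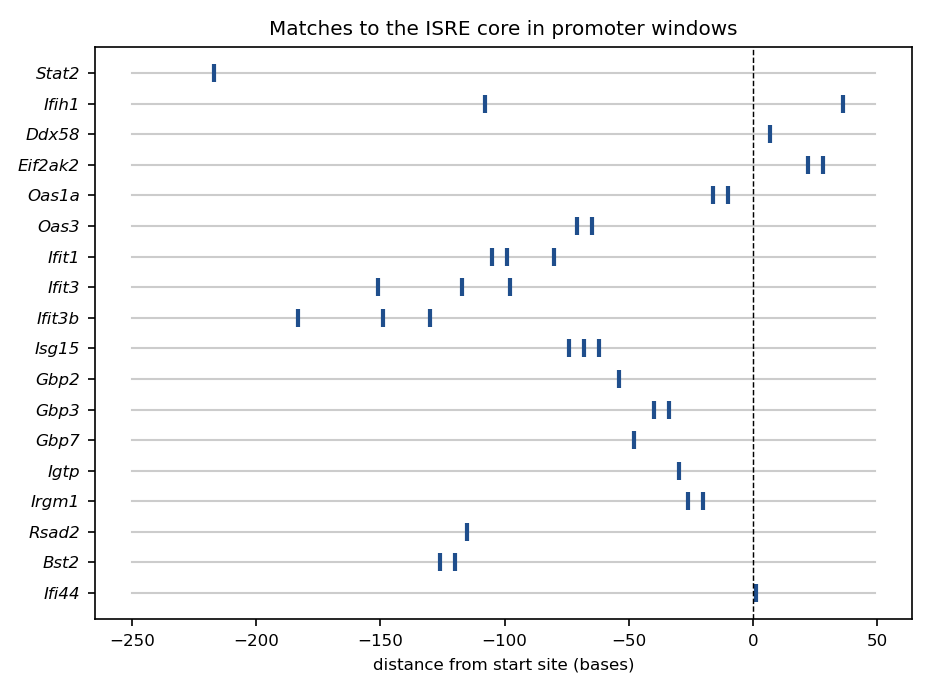
Position of each match to the ISRE core (blue tick, centred on the match) in the 18 genes that have one, as distance from the start site in bases; the grey line is the 300-base window and the dashed line the start site. Most ticks lie within the last 150 bases before the start site, and in Isg15, Ifit1 and 6 other genes neighbouring ticks are 6 bases apart.

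After 24 h of MCB-613-10-1 nearly the whole set was lower. At an adjusted p under 0.05 (quasi-likelihood test of edgeR, Benjamini-Hochberg over 15575 genes), 39 of 40 genes fell and 1, Ifi27, rose. At this time 38.0% of all genes tested were called lower and 36.7% higher, 74.7% in all, so a call as such was common. The median log2 fold change was -2.23 over the 40 genes and -0.02 over all genes, and 38 of the 40 were below -1. All treated libraries lay below all vehicle libraries in 39 of the 40, a pattern seen in 39.4% of all genes. Vehicle libraries also differed among themselves, with replicate 1 highest in 39 of 40 members and replicate 3 lowest in 36. The highest vehicle library was a median of 1.46 times the lowest over the members, against 1.14 times over all genes tested. Without vehicle replicate 1 the median log2 fold change of the members was -2.09. In bulk RNA, fewer cells of a type and less RNA per cell cannot be told apart.

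Markers of other cells moved at the same time, when 38.0% of all genes tested were called lower and 36.7% higher. Of 14 macrophage and leukocyte markers tested at 24 h, 12 fell and 2 rose (Csf1r and Cd14), and their summed level was 387.4 to 461.5 CPM in vehicle and 169.0 to 193.7 CPM in treated libraries. None of the 15 was at 0 in all libraries of a group. Fibroblast markers fell too, 9 of 11, to a summed level of 6910 to 7280 CPM. Endothelial markers moved both ways, 6 of 10 lower and 4 higher. Their sum was 520.5 to 536.4 CPM in vehicle and 346.4 to 353.9 CPM in treated libraries. The part of any of these shifts in the fall of the interferon-stimulated genes was not tested.

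**Figure D2:**
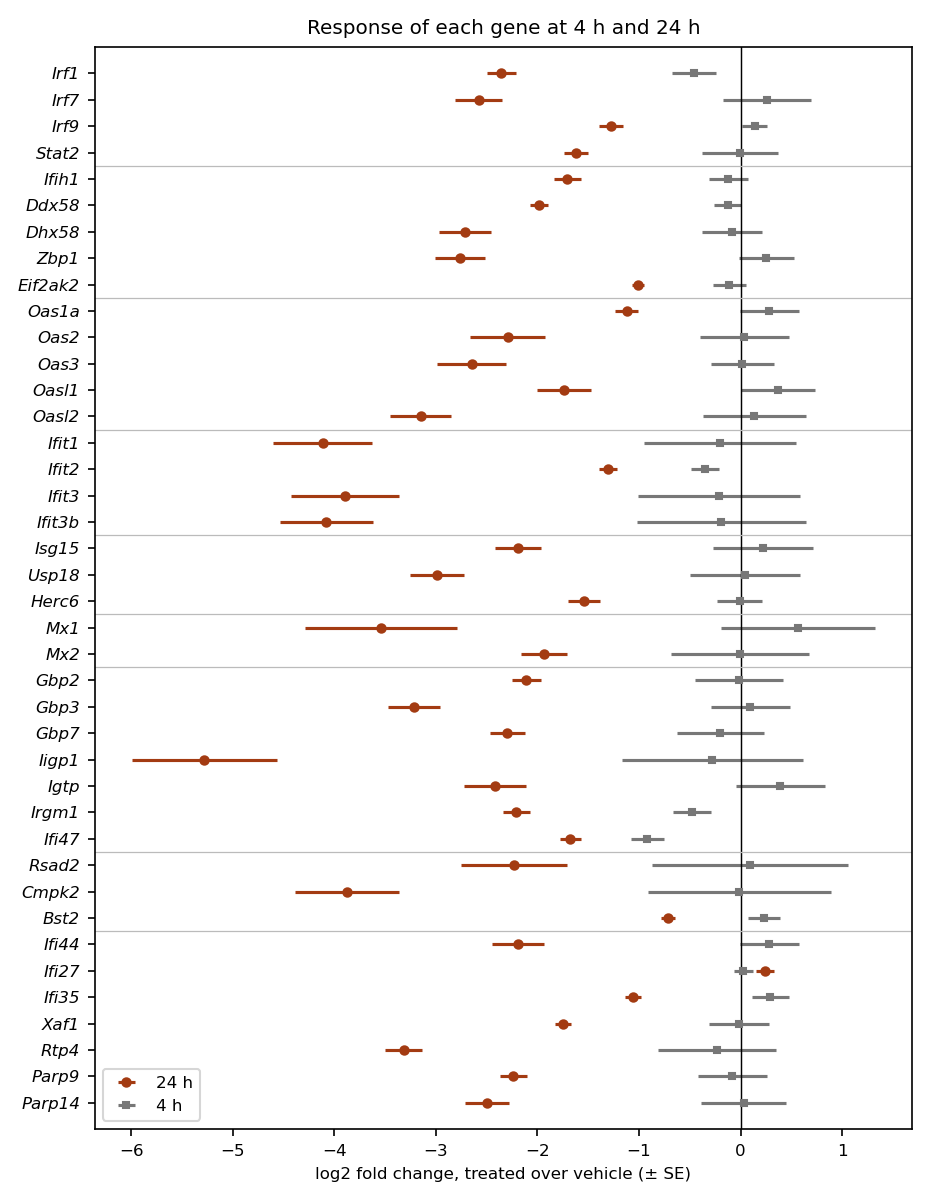
Log2 fold change of treated over vehicle (edgeR, ± SE, 3 against 3 libraries) for each of the 40 genes at 24 h (red circles) and 4 h (grey squares), with lines between functional groups. At 24 h every gene except Ifi27 is left of 0, down to -5.28 for Iigp1, and at 4 h Ifi47 alone was called.

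The 4 transcription factors among the members all fell at 24 h. Irf7, the factor that amplifies type I interferon production (ENSMUSG00000025498, GRCm39 chromosome 7, 140842619 to 140846394), measured 96.4, 66.0 and 62.9 CPM in the vehicle libraries and 14.4, 11.4 and 11.9 CPM in the treated libraries. The groups did not overlap, and the change was -2.58 ± 0.24 (log2, SE; adjusted p = 0.00038, edgeR). Stat2, the ISGF3 subunit that brings the activation domain, went from 108.7, 88.2 and 80.1 CPM to 32.0, 30.1 and 28.3 CPM, a log2 change of -1.62 ± 0.12. Irf9, the DNA-binding subunit, changed least of the 4 factors. Its levels were 72.0, 67.4 and 57.3 CPM in vehicle and 22.7, 29.9 and 28.5 CPM in treated libraries (-1.28 ± 0.12). Irf1, a factor induced mainly by interferon gamma, was at 12.4 ± 0.80 CPM (SD, n = 3) in vehicle and 2.40 ± 0.33 CPM in treated cells, a log2 change of -2.36 ± 0.14.

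Of the members that sense foreign RNA or DNA, 5 of 5 fell as well. Zbp1, a sensor of left-handed nucleic acid, measured 27.5, 16.9 and 19.1 CPM in vehicle and 3.91, 2.57 and 2.96 CPM in treated libraries (-2.76 ± 0.24). Dhx58, which encodes the RIG-I-like protein LGP2, fell from 23.8, 18.6 and 17.5 CPM to 4.44, 2.64 and 2.09 CPM (-2.71 ± 0.26). In both genes the highest treated library was far under the lowest vehicle library. Ddx58 (RIG-I) and Ifih1 (MDA5), the RNA helicases that signal through MAVS, changed by -1.98 ± 0.09 and -1.70 ± 0.13. Eif2ak2, the kinase PKR that stops translation on double-stranded RNA, had the smallest change of the group at -1.01 ± 0.06.

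All 5 members from the OAS family fell, which make or resemble the enzymes that activate RNase L. Oasl2 was at 92.8, 65.2 and 64.7 CPM in vehicle and at 11.4, 7.72 and 6.00 CPM in treated libraries, a log2 change of -3.15 ± 0.30 (adjusted p = 0.00064, edgeR). Oas2 went from 12.2, 6.42 and 9.87 CPM to 2.24, 2.48 and 1.00 CPM (-2.30 ± 0.37). Both pairs of groups were apart. The other members ranged from -1.12 in Oas1a to -2.65 in Oas3, and Oas3 was a low-level gene, at 0.65 CPM per kb in vehicle. Reads of Oas1a may be shared with its close copies, so its value is uncertain.

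Genes of the IFIT family, whose proteins bind foreign RNA ends, held some of the largest falls. Ifit1 (ENSMUSG00000034459, GRCm39 chromosome 19, 34618271 to 34627409) measured 142.8, 95.5 and 70.1 CPM in vehicle and 9.40, 4.40 and 4.13 CPM in treated libraries. That is a log2 change of -4.12 ± 0.49, or 17.4-fold (adjusted p = 0.0016, edgeR). Ifit3b fell from 41.8, 30.6 and 20.5 CPM to 2.65, 1.17 and 1.78 CPM (-4.08 ± 0.46), and Ifit3 changed by -3.90 ± 0.53. The longest annotated transcripts of Ifit3 and Ifit3b share 81.7% of aligned positions, so the split of reads between them is uncertain. Ifit2 changed least of the family, by -1.31 ± 0.09.

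The ISG15 system attaches a ubiquitin-like protein to other proteins. Isg15 itself (ENSMUSG00000035692, GRCm39 chromosome 4, 156283912 to 156285253) measured 149.1, 120.4 and 103.6 CPM in vehicle and 33.9, 24.8 and 23.4 CPM in treated libraries (-2.19 ± 0.23, adjusted p = 0.00083, edgeR). Usp18, which removes ISG15 and damps receptor signalling, fell further, from 85.5, 63.9 and 51.3 CPM to 9.48, 8.76 and 6.96 CPM (-2.99 ± 0.27). Herc6, the mouse ligase for ISG15, changed by -1.54 ± 0.16. Transcripts of the MX family of GTPases were rare. Mx2 was at 7.08, 6.16 and 4.12 CPM in vehicle and 1.59, 1.69 and 1.22 CPM in treated libraries (-1.94 ± 0.23), and Mx1 changed by -3.54 ± 0.75 from a level of 0.59 CPM per kb.

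All 7 members from the GBP and IRG families fell. These GTPases attack the membranes around intracellular microbes and answer strongly to interferon gamma. Iigp1 had the largest change of the 40 genes, from 37.3, 19.2 and 18.6 CPM to 1.47, 0.195 and 0.348 CPM (-5.28 ± 0.72, adjusted p = 0.0025, edgeR). The treated libraries held 36, 6 and 8 counts of it, and without treated replicate 1 the change was -6.57. Gbp3 (GRCm39 chromosome 3, 142265787 to 142278970) went from 50.8, 33.1 and 34.7 CPM to 5.29, 3.91 and 3.61 CPM (-3.22 ± 0.25). Ifi47 had the smallest change of the group, from 23.0, 21.3 and 19.9 CPM to 7.04, 6.03 and 7.09 CPM (-1.68 ± 0.11). Igtp, Gbp7, Irgm1 and Gbp2 lay between, at -2.42, -2.30, -2.21 and -2.11. Members of these families have close copies in the mouse genome, and reads that match several were not followed here.

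Rsad2 (viperin) and Cmpk2, adjacent genes on chromosome 12 that serve antiviral nucleotide metabolism, both fell. Cmpk2 fell from 21.6, 13.3 and 8.56 CPM to 1.22, 0.912 and 0.827 CPM (-3.88 ± 0.51, adjusted p = 0.0015, edgeR). Rsad2 varied more among its vehicle libraries, at 42.7, 26.7 and 14.2 CPM, against 7.24, 5.05 and 5.70 CPM in treated libraries. Its change of -2.23 ± 0.52 passed with an adjusted p of 0.017, and leaving out any 1 of the 3 treated libraries ended the call (adjusted p from 0.051 to 0.068). Bst2 (tetherin), which holds budding virus at the cell surface, had the smallest fall of all, -0.71 ± 0.07.

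Of the remaining members, 6 of 7 fell. Rtp4 averaged 41.4 ± 8.38 CPM (SD, n = 3) in vehicle, with its lowest library at 33.3 CPM, and measured 4.88, 3.88 and 3.70 CPM in treated libraries (-3.32 ± 0.19). Parp14, an ADP-ribosyltransferase, went from 74.5, 57.0 and 50.1 CPM to 12.1, 8.76 and 11.5 CPM (-2.50 ± 0.22). Parp9, its partner gene, changed by -2.24 ± 0.14. Ifi27 (GRCm39 chromosome 12, 103400470 to 103406498), a small mitochondrial protein gene, was the exception at 82.1, 85.6 and 81.8 CPM in vehicle and 89.6, 90.9 and 114.3 CPM in treated libraries. Its rise of 0.24 ± 0.09 (adjusted p = 0.031, edgeR) was not called when any 1 vehicle library was left out, on library totals (0.04, where the median of all genes was -0.21) or by limma on FPKM.

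**Figure D3:**
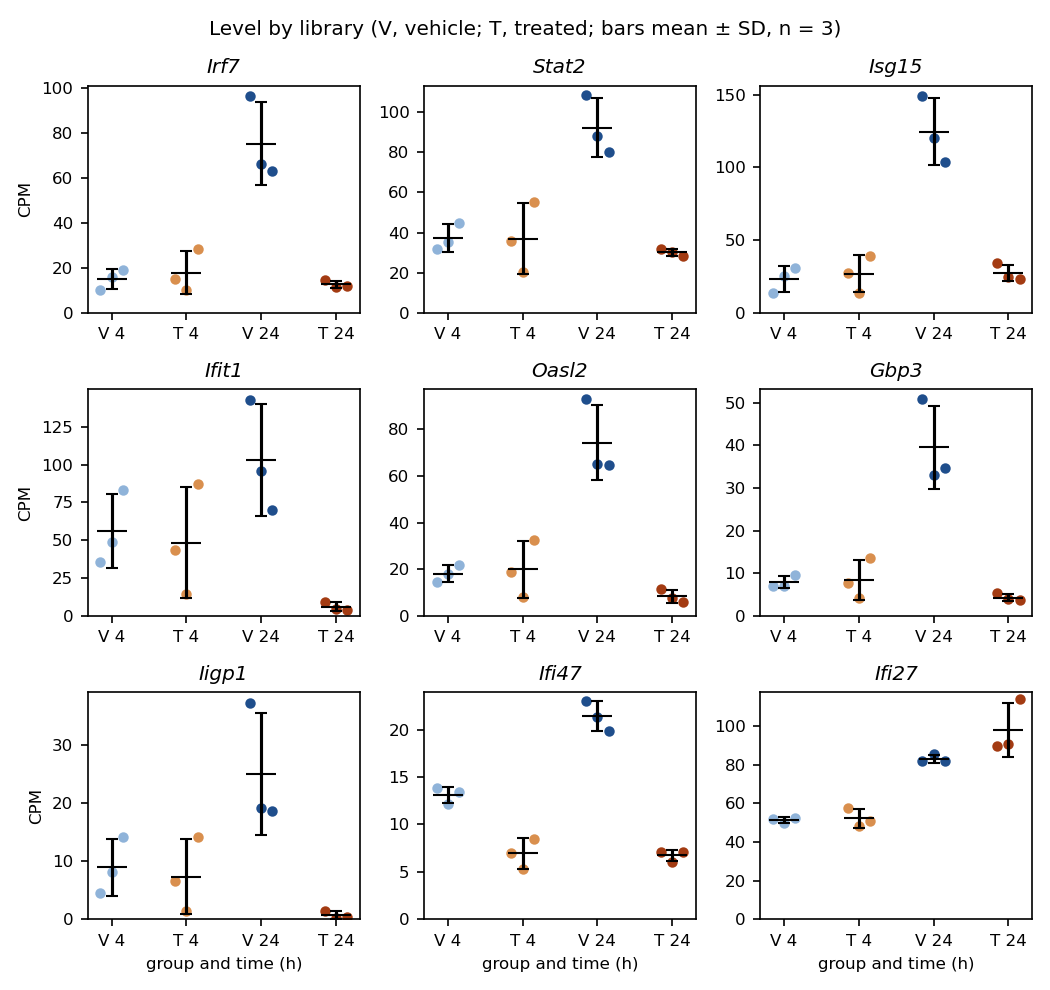
Level of 9 genes in CPM in each library of vehicle (V) and treated (T) cells at 4 h and 24 h; points are libraries and bars the mean ± SD of 3 libraries. In Irf7, Stat2, Isg15, Oasl2 and Gbp3 the vehicle 24 h libraries stand above the other 3 groups, Ifi47 is already lower in treated cells at 4 h, and Ifi27 is highest in treated cells at 24 h.

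At 4 h, 1 of the 40 genes fell and 0 rose, where 3.71% of 15336 genes were called lower and 3.45% higher, 7.16% in all. The count at an unadjusted p under 0.05 was 3 lower and 0 higher, where 1949 of the 15336 genes were lower and 1639 higher. DESeq2 called 2 members lower, among 1408 genes called in either direction. The gene called was Ifi47 (GRCm39 chromosome 11, 48967414 to 48987801), an IRG-family GTPase. It measured 13.8, 12.1 and 13.4 CPM in vehicle and 6.98, 5.31 and 8.50 CPM in treated libraries, without overlap, a log2 change of -0.92 ± 0.17 (adjusted p = 0.0066, edgeR). The change was -0.76 without treated replicate 2 and -1.09 without treated replicate 3, and it was called in both cases. Ifit2 and Irgm1 also had all treated libraries below all vehicle libraries, so this held for 3 of the 40 genes and for 15.2% of all genes. In the authors' deposited table, Ifi47 and Irgm1 were the members with an adjusted p under 0.05 at 4 h.

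The treated libraries at 4 h differed from one another in these genes. Replicate 2 was the lowest of the 3 in 39 of 40 genes, and replicate 3 the highest in 39 of 40. The members summed to 874.2, 536.7 and 1266 CPM in the 3 treated libraries and to 796.3, 909.4 and 1139.5 CPM in the vehicle libraries. The highest treated library was a median of 2.76 times the lowest over the 40 genes, against 1.18 times over all genes tested. Iigp1 spanned most, with 6.51, 1.36 and 14.1 CPM. Without treated replicate 2 the median log2 change of the members at 4 h was 0.28, and without replicate 3 it was -0.42. A missed threshold at 4 h therefore does not show that the genes were alike in both groups.

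**Figure D4:**
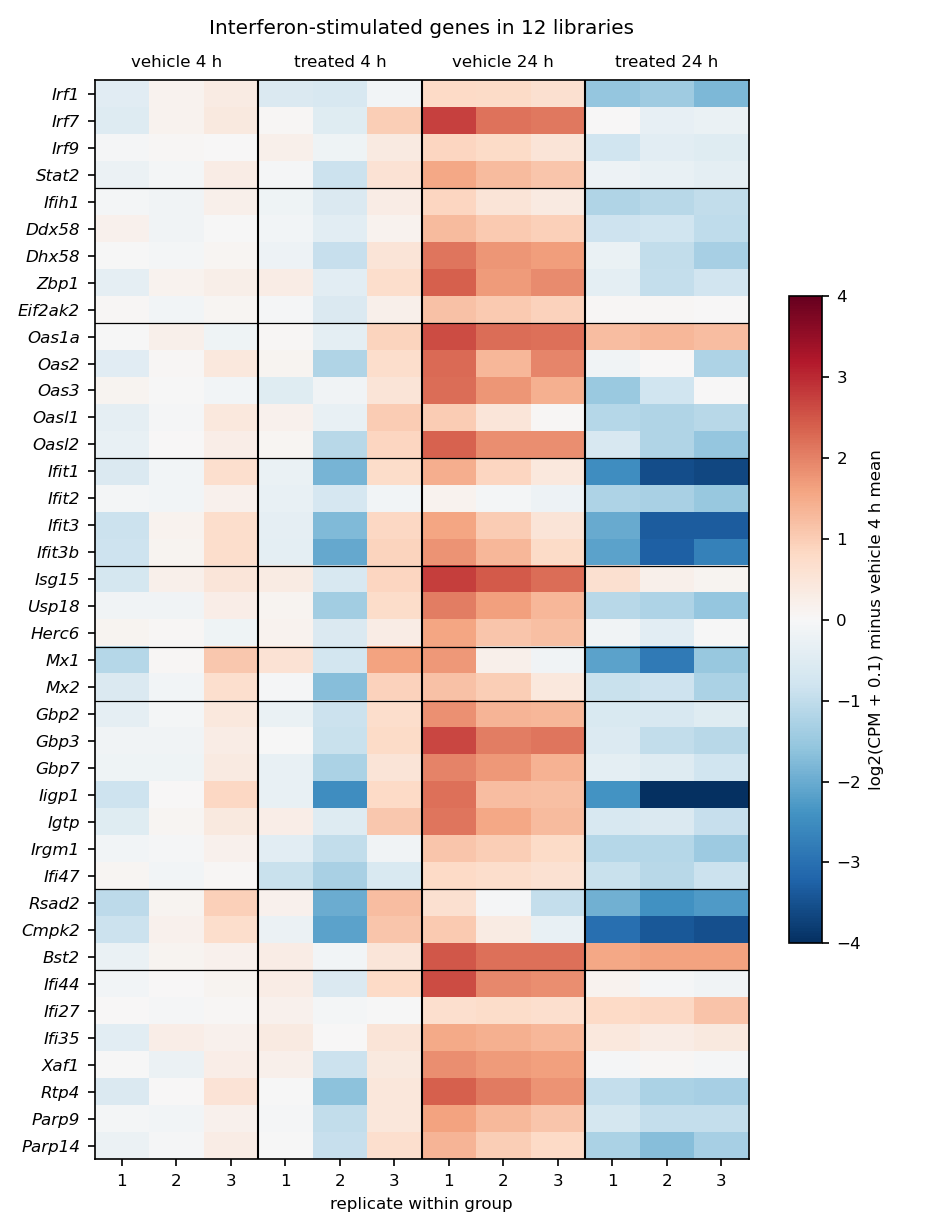
Level of the 40 genes in the 12 libraries as log2(CPM + 0.1) minus the mean of the vehicle 4 h libraries (red higher, blue lower; colour limits at -4 and 4), with rows by functional group. Treated 4 h replicate 2 is bluer and replicate 3 redder than replicate 1 in most rows, the vehicle 24 h columns are mostly red, and the treated 24 h columns mostly blue.

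The difference between the responses, tested as an interaction over all 12 libraries, was negative and called for 37 of 40 genes (27.1% of 16341 genes were called in this direction and 26.7% in the other, 53.8% in all). Its median was -2.23 over the members and -0.0004 over all genes. Mx2, Rsad2 and Ifi27 were not called, with adjusted p of 0.072, 0.13 and 0.16 (edgeR). Ifi47 had a difference of -0.75 ± 0.20. The median over the members was -2.59 without treated 4 h replicate 2 and -1.74 without treated 4 h replicate 3, with 39 and 36 genes called. In the same test 11 of 14 macrophage and leukocyte markers were called negative and 1 positive (median -1.17), and of 11 fibroblast markers 8 were called negative and 1 positive (median -0.87). Their part in the result was not tested. In the authors' 24 h table the group means are named with an extra prefix for which the labels give no meaning. The libraries of each time also form a set of their own. Time therefore cannot be told apart from anything else in which the 4 h and 24 h sets may differ.

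Vehicle cells themselves differed between the times. Between 4 h and 24 h of vehicle, 30 of 40 members rose and 0 fell. Of all genes, 27.4% rose and 27.0% fell, 54.3% in either direction. The median of the members was 1.38 on the log2 scale, and 1.22 without vehicle 24 h replicate 1. All 24 h vehicle libraries lay above all 4 h vehicle libraries in 32 of 40 members, against 31.1% of all genes. Isg15 rose from 13.4, 25.1 and 30.5 CPM to the values given above (2.48 ± 0.42), and Irf7 from 9.95, 15.9 and 18.9 CPM (2.38 ± 0.39). Both comparisons use the same vehicle 24 h libraries, so they are not independent. None of the 4 IFIT genes was called here, nor were Mx1, Mx2, Rsad2, Cmpk2, Oasl1 and Iigp1. Ifit1 was at 35.5, 49.1 and 83.2 CPM in vehicle at 4 h, and its 3 libraries overlapped those at 24 h. Macrophage and leukocyte markers rose too, 14 of 14 tested, from a sum of 109.6 to 121.2 CPM at 4 h to 387.4 to 461.5 CPM at 24 h, and their part in the rise was not tested. Time in culture and anything else that differed between the 4 h and 24 h sets cannot be told apart.

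Set against the 4 h vehicle cells, treated cells at 24 h were lower in some members and not in others. All treated 24 h libraries lay below all vehicle 4 h libraries in 26 of 40 genes (35.1% of all genes) and above them in 4 of 40 (33.4%). Isg15, at 23.0 ± 8.78 CPM in vehicle at 4 h and 27.3 ± 5.72 CPM in treated cells at 24 h, overlapped. Ifit1, at 55.9 ± 24.6 CPM and 5.98 ± 2.97 CPM, did not. Bst2, Oas1a, Ifi35 and Ifi27 were the members above.

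Per kb of gene length, levels in vehicle at 24 h ran from 187.9 ± 21.5 CPM per kb for Bst2 and 176.9 ± 32.7 for Isg15, which did not differ beyond their spread, to 0.59 ± 0.46 for Mx1. Ifit3 (57.0 ± 20.6) and Ifi27 (56.7 ± 1.42) came next and also lay within their spread. In treated cells at 24 h, Bst2 stayed first at 114.8 ± 2.66 and Ifi27 followed at 67.0 ± 9.47, while Isg15 was at 38.9 ± 8.14 CPM per kb and Ifit3 at 3.87 ± 2.24, in place 12 of 40.

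The interferons themselves were barely seen. Of 20 interferon genes, 13 were listed at 0 FPKM (fragments scaled to gene length and library size) in all 12 libraries, none passed the filter on low counts, and the highest value of any was 0.42 FPKM. Ifnb1, interferon beta, had 3, 2 and 9 counts in vehicle and 1, 0 and 6 in treated libraries at 4 h, and 3, 2 and 0 against 0, 0 and 0 at 24 h. Ifnz, the interferon gene with the most counts, had 5, 6 and 2 counts in vehicle and 8, 11 and 12 in treated libraries at 4 h, and 2, 3 and 4 against 9, 11 and 3 at 24 h. Counts this low allow no comparison.

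For the lists that follow, 36.7% of all genes were called higher at 24 h and 38.0% lower. Receptors, kinases and STATs moved in both directions at 24 h, 2 of 15 higher and 6 lower. Tyk2 changed by -0.69 and Ifnar1 by -0.43 ± 0.06, whereas Jak1 rose by 0.69 ± 0.05. Ifnar2, at -0.08, and Irf3, at -0.05, were not called (adjusted p = 0.32 and 0.52, edgeR). Among 15 negative regulators tested, 6 rose and 6 fell, near the shares of all genes. Ptpn6, a phosphatase of blood cells, changed by -2.86 and Samhd1, a dNTP hydrolase, by -2.37, and Socs1, an inhibitor of JAK kinases, by -0.51. The risers, named after their values were seen, included the SUMO ligases Pias4 (1.54) and Pias2 (1.03) and the JAK inhibitor Socs3 (0.63), which was also called higher at 4 h (0.65, adjusted p = 0.021, edgeR).

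Upstream sensors and adaptors were likewise mixed, with 10 of 17 higher and 7 lower, beside 36.7% and 38.0% of all genes. Tlr7 and Tlr3, endosomal RNA receptors, changed by -3.03 and -1.76. Cgas and Sting1, which sense and relay cytosolic DNA, changed by -0.50 and -0.30, and Mavs, the adaptor of the RNA helicases, rose by 0.65. The largest rises, named after their values were seen, were those of Traf6 (1.61), an adaptor of Toll-like receptors, of the receptor gene Tlr4 (1.38) and of the DNA sensor Aim2 (1.13). Of 51 tested interferon-stimulated genes outside the 40, 42 fell and 5 rose (Mlkl, Trafd1, Pnpt1, Tor3a and Tdrd7), with a median log2 change of -1.56. Tgtp2 and Gbp4, GTPases of the IRG and GBP families, changed most, by -4.76 and -4.34, from low levels. At 4 h 1 of 48 rose, Mlkl, and 1 fell, Slfn9, beside 3.45% and 3.71% of all genes.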

How the data were processed

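RNA was sequenced from 12 libraries of mouse cardiac fibroblasts, in 4 groups of 3. Per the submitters' processing notes, HISAT2 2.0.5, featureCounts 1.5.0-p3 and DESeq2 were used with the build GRCm39. The authors deposited, per the file headers, raw counts per gene and library, FPKM, and, from their own comparison, log2 fold changes, p-values and adjusted p-values, 1 table per time. A further 16 deposited value columns were not used, 12 of them per sample. The strand setting of the counting is not given in the sources used here.

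Counts were tested with edgeR 4.0.16 (R 4.3.3) after its default filter of low counts and TMM scaling, with robust quasi-likelihood fits on the 6 libraries of a time, or all 12 for the difference and for vehicle across times. P-values were adjusted by Benjamini-Hochberg across every tested gene, with calls at an adjusted p under 0.05. The fits were tested on simulated data with the same small variability for every gene and with independent libraries. That setting does not cover the joint spread of the members among the treated 4 h libraries. CPM were scaled within a time; scaling over all 12 libraries changes effective library sizes by a factor of 0.982 to 1.02. Alternatives were DESeq2 1.42.0, limma 3.58.1 on log2(FPKM + 1) for genes over 0.5 FPKM, other scalings, no filter, a replicate block and leaving out each library. Library values are given for the 2 called genes of each role with the largest change at 24 h and at least 1 CPM per kb, for Irf7, Irf9, Stat2, Isg15 and Ifit1, and for any gene called at 4 h or higher at 24 h. The members and gene lists were chosen with earlier results of these data known. Of the 29 promoter windows, 28 held bases after the start that lie in an annotated transcript of the same gene. The result for 1 gene of the pathway lists is not reported here.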

Additional observations from a re-analysis of the deposited data

Results flagged for a closer look

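The response to MCB-613-10-1 differed between 24 h and 4 h by a test of the difference itself (edgeR interaction over 12 libraries) in 37 genes of the set, all with a lower value at 24 h. Of 16341 genes, 27.1% were called negative in this test and 26.7% positive, 53.8% in all. Among the genes described by library, the log2 difference was -5.00 for Iigp1, -3.91 for Ifit1, -3.88 for Ifit3b and -3.86 for Cmpk2. It was -3.30 for Gbp3, -3.28 for Oasl2, -3.09 for Rtp4, -3.03 for Usp18 and -3.01 for Zbp1. Irf7 had -2.83, Dhx58 -2.62, Parp14 -2.52, Isg15 -2.41 and Oas2 -2.33. The smallest of these differences were -1.89 for Irf1, -1.60 for Stat2, -1.41 for Irf9 and -0.75 for Ifi47. In Cmpk2 the call was lost in 6 of the fits that left out 1 library (adjusted p up to 0.063). As folds, 4 of these differences moved by more than 1.5 times when 1 library was left out. Without treated 4 h replicate 3 the difference was -3.16 for Ifit1, -2.95 for Ifit3b, -2.83 for Cmpk2 and -4.09 for Iigp1, and without treated 24 h replicate 1 it was -6.28 for Iigp1. Macrophage and leukocyte markers (11 of 14) and fibroblast markers (8 of 11) were also negative and called in this test, and their part was not tested. The libraries of each time form a set of their own, and the authors' 24 h table carries an unexplained prefix. Time and other differences of the 4 h and 24 h sets therefore cannot be told apart.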

How the results depend on the processing

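The count of 39 members lower at 24 h was 38 to 39 when 1 library was left out and 39 under every other alternative run, and 38 genes were called lower in all 14 fits, Rsad2 being the exception. The count of members higher at 24 h went from 1 to 0 on library totals and with limma on log2(FPKM + 1), and was 0 to 1 without 1 library. At 4 h the members lower numbered 2 with DESeq2, 3 with the replicate block and 1 to 2 without 1 library. The number of genes called at 4 h was 1953 with the replicate block, 2198 with all 12 libraries in 1 fit and 667 with limma on log2(FPKM + 1), against 1098, and 443 to 1760 without 1 library. Same-numbered libraries correlated with r of 0.088, 0.083 and 0.109 at 4 h, all above the -0.108 to 0.020 of differently numbered libraries. At 24 h they correlated with 0.013, 0.020 and -0.043, within the -0.080 to 0.072 of differently numbered libraries. The main fits did not pair libraries by number, and whether the numbers pair the 4 h libraries was not settled. The cause of these shifts was not tested. The difference between times was called lower for 35 to 39 members without 1 library, and the vehicle rise for 28 to 31. Of 55 called changes of the members described by library, none reversed in 847 refits, and 19 refits lost the call, in Rsad2, Cmpk2, Ifi27 and Parp14 (vehicle across times). Changes on the log2(FPKM + 1) scale understate low genes, and Iigp1 was -2.17 there. With the shorter element AANNGAAA, 75.9% of the member windows held a match, against 26.7% of all genes. Iigp1, Mx1 and Oas3 rest on few counts in treated cells at 24 h.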
